A study of Mus musculus with 6 samples.

Results

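The nuclear-encoded subunits of the mitochondrial respiratory chain and of ATP synthase were followed in mouse liver, as 84 genes on the array chosen by symbol. They were every gene with a probe matched by accession to a RefSeq symbol that began with Ndufa, Ndufb, Ndufc, Ndufs or Ndufv and a digit, was Sdha to Sdhd, or began with Uqcr, Cox4 to Cox8 or Atp5. Of 20284 genes with a symbol on the array, 84 met the rule through 113 probes, and the 82 that passed the filter on dim probes were tested among 20659 features in all. The brightest probe stood for each gene. The members kept were 35 of 35 for complex I, 4 of 4 for complex II, 8 of 8 for complex III, 18 of 20 for complex IV and 17 of 17 for ATP synthase, also called complex V. Cox7b2 and Cox8c, testis forms of complex IV subunits, were above background in 0 of 8 pools and were not tested. The 13 subunits encoded by mitochondrial DNA had no probe matched by accession and were not analysed here.

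The squalene group was male Apoe-deficient mice on the C57BL/6J background, 10 animals, fed a purified Western diet with 1% squalene for 11 weeks, a dose put at 1 g/kg in the labels. The Western group was 9 males of the same genotype on the unsupplemented diet, a diet of 20% palm oil and 0.15% cholesterol. Both groups thus lacked apolipoprotein E, a ligand for the hepatic uptake of lipoproteins, and both ate the cholesterol-rich diet; no group with Apoe intact or on another diet was included. Age was not given in the labels. Liver RNA was combined into 4 pools per diet of 2 or 3 animals each, and a squalene pool was hybridised with a Western pool on each two-colour array. The 6 arrays made 4 pool pairs: squalene was in the dye Cy5 in pairs 1 and 4 and in Cy3 in pairs 2 and 3, and pairs 1 and 2 were hybridised on 2 arrays each. Those repeat arrays were on slides 1 and 2, while pairs 3 and 4 were on slide 2 alone. Pool pairs were the replicates (n = 4), and ratios are log2 of squalene over Western. Each array had 62976 spots, with signal well above background for 48.7% to 54.2% of them per channel and no saturation. All 10 hepatocyte markers listed were above background in all 8 pools, while 2 of 11 markers of skeletal and heart muscle passed the filter. Of 6 brown fat markers 3 passed it, and the defining gene Ucp1 was above background in 0 of 8 pools.

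The respiratory chain passes electrons from NADH, through complex I, and from succinate, through complex II, to coenzyme Q, then by complex III and cytochrome c to complex IV, which reduces oxygen to water. Complexes I, III and IV pump protons across the inner mitochondrial membrane, and ATP synthase lets the protons return while it makes ATP. In liver this supports gluconeogenesis, urea synthesis and the burning of fatty acids. Squalene lies on the path to cholesterol and shares its isoprenoid precursors with the side chain of coenzyme Q. The arrays addressed the effect of dietary squalene on hepatic transcripts.

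Nuclear genes of oxidative phosphorylation are known targets of the transcription factors NRF-1, the ETS factor GABP (also called NRF-2), YY1 and the oestrogen-related receptors (ERR). Their motifs were sought on both strands of RefSeq promoters of build GRCm38.p6, from 250 bases before to 50 after the start. Of the 84 members on the array, kept or not, 68 matched, with 73 promoters, against 32851 promoters in all. The NRF-1 palindrome, whose letters are the longest run of capitals in each sequence printed here, was in 6.85% of member promoters and 0.971% of all promoters. The ETS motif CCGGAAG was in 23.3% and 8.86%, the YY1 motif AAGATGGCG in 9.59% and 1.4%, and the ERR core site AAGGTCA in 11.0% and 4.72%. At least 1 of the 4 motifs was found in 30 member genes, and no matches of different motifs overlapped in a member promoter. The NRF-1 palindrome was in the promoters of Atp5g2, Atp5k, Cox6a1, Ndufa11 and Uqcrc1. Atp5k, for subunit e of ATP synthase, and Cox6a1, for the form of a complex IV subunit that liver uses, are printed because they hold it together with other motifs. Capitals mark every match of the 4 motifs, on either strand.
Atp5k, chr5:108434350-108434649, minus strand: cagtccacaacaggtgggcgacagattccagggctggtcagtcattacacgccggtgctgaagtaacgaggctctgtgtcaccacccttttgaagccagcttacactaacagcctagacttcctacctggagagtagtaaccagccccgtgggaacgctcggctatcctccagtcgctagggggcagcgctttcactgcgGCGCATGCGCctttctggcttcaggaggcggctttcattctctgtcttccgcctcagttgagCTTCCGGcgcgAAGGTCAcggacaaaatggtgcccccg
Cox6a1, chr5:115348909-115349208, minus strand: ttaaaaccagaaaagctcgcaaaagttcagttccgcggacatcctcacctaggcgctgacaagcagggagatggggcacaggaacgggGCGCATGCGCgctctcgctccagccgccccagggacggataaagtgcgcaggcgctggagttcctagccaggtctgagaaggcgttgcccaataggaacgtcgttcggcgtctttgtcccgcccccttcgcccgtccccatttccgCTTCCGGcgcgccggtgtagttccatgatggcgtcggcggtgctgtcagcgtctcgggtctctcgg
In Atp5k the NRF-1 match begins 50 bases before the start, and the ETS match, here in reverse complement, and the ERR core site lie after it. In Cox6a1 the NRF-1 match begins 162 bases before the start and the reverse complement of the ETS motif 16 before it. These matches are letters in a window, not measured binding.

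No measured subunit differed detectably between the diets. Across the 82 members the fitted log2 ratio ran from -0.12 for Ndufa4l2 to 0.11 for Ndufa5, that is from 0.922-fold to 1.08-fold. Their median was 0.02 (interquartile range -0.0032 to 0.04), against 0.0028 for all features. All 82 lay within 0.2 of 0, as did 96.6% of all features; the highest ratio among genes with a symbol, 3.35, was that of the drug-metabolising enzyme gene Cyp2b10.

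By limma with Benjamini-Hochberg adjustment, 0 of 82 members and 0 of 20659 features (0%) passed an adjusted p of 0.05, and 0 members also passed an unadjusted p of 0.05, a level reached by 2.47% of all features (1.05% higher, 1.42% lower). The smallest adjusted p of a member was 0.9999 (limma, Benjamini-Hochberg). No member had squalene pools wholly above its Western pools, where 0.378% of all features did, and none had them wholly below, where 0.392% did. The pools are bulk liver, so fewer cells of a type and less RNA per cell cannot be told apart. The labels do not say which animals entered which pool. The p-values rest on the spread between these pool pairs left after the dye term, together with variance shared across features.

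The fit after loess bounded how large a change could be. Intervals under other normalisations are not given. With median centring Ndufa5 was at 0.12 with an unadjusted p of 0.36 (limma), against 0.11 and 0.15 after loess. The 95% interval of the ratio reached a median of 0.15 to either side, and for 81 of the 82 members the whole interval lay within 0.32 of 0 on the log2 scale; without the dye term in the model, 78 did. Among all features, 17000 of 20659 met that bound. All features were dimmer, at a median log2 intensity of 8.50 against 14.2 for members, and were not matched for brightness. The exception among the members was Ndufa4l2, whose interval ran from -0.40 to 0.16. The median SD of a member's ratio between pool pairs was 0.13, against 0.16 for all features. The members' median SD between repeat arrays of a pair was 0.05 in pair 1 and 0.03 in pair 2. Repeat arrays of a pair kept the same dye orientation and were on different slides, while the SD between pool pairs spans both orientations. The larger SD between pairs thus includes any dye effect, and the variation of pools apart from it was not tested.

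**Figure D1:**
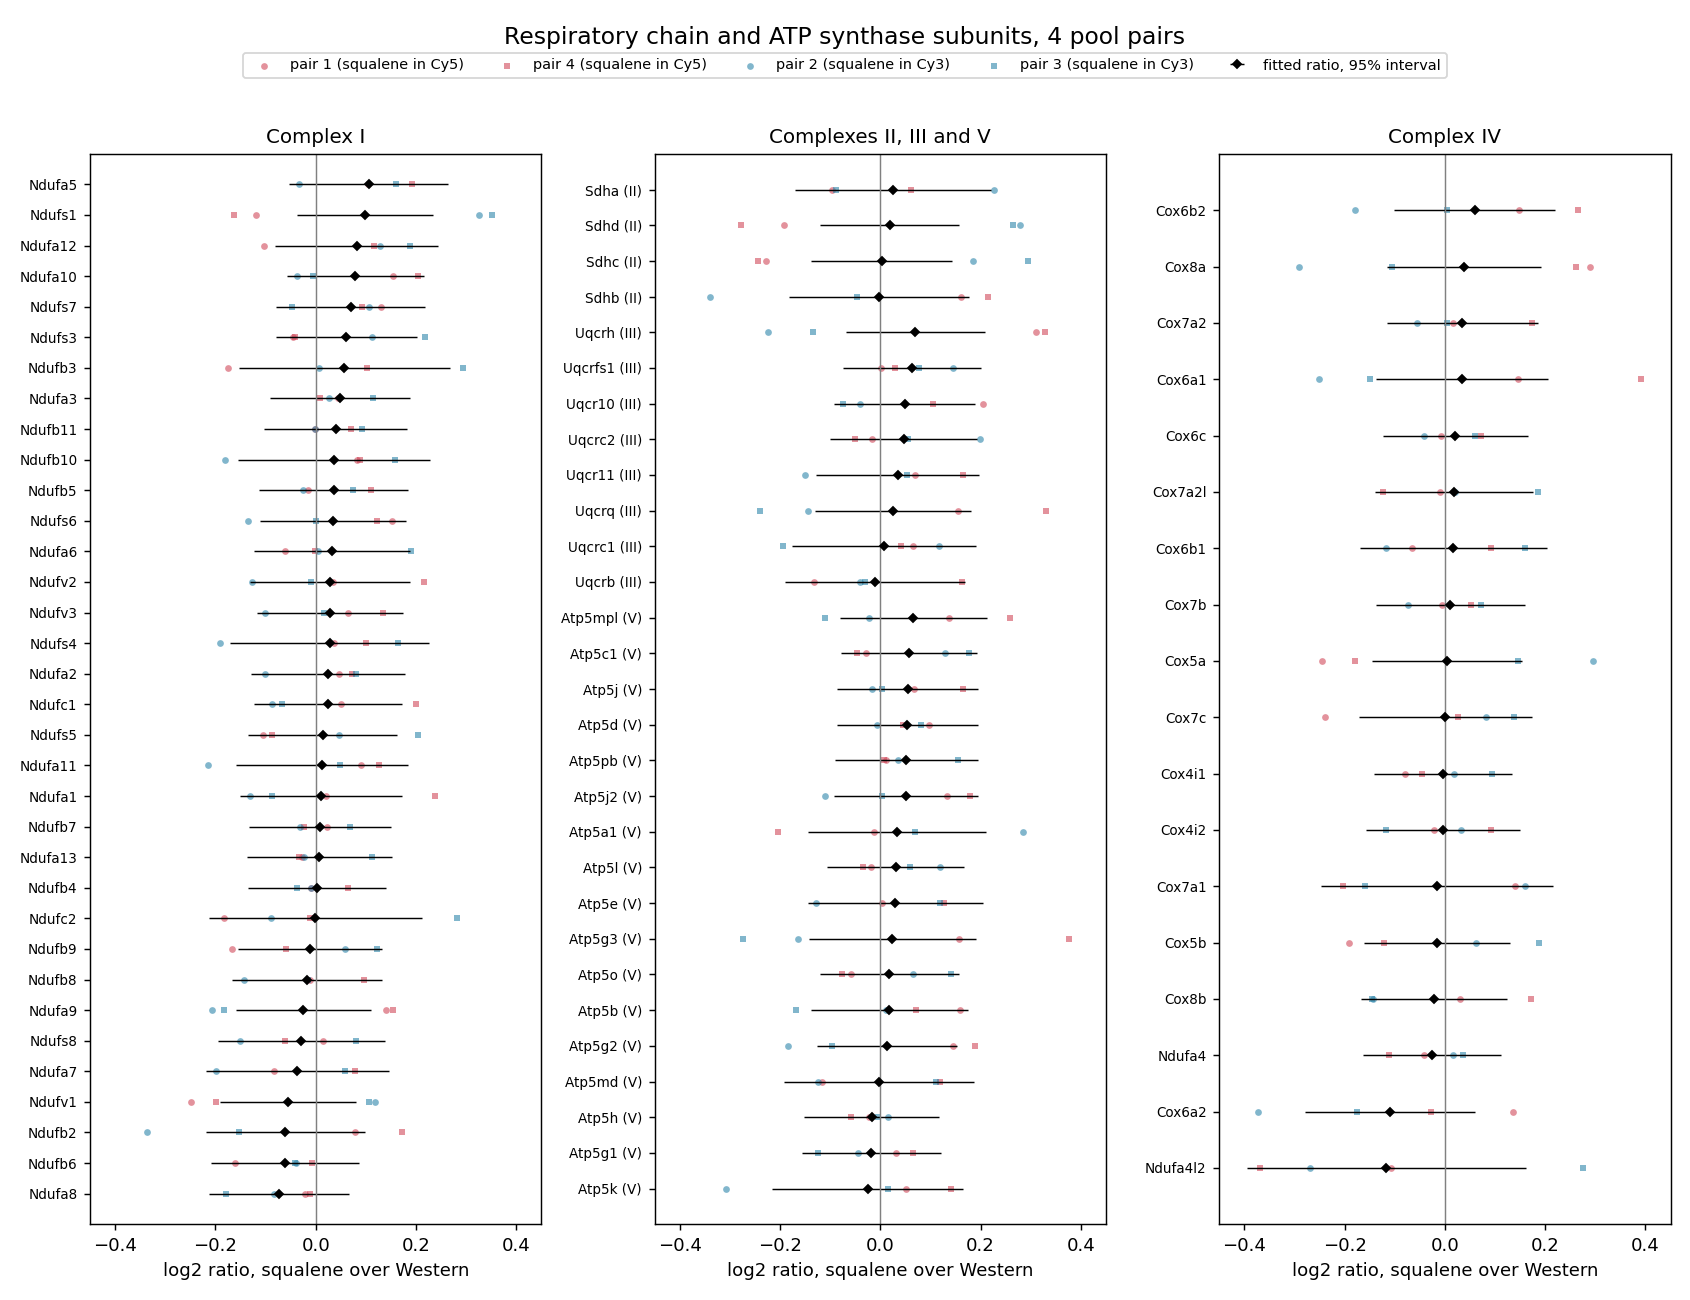
Log2 ratio of squalene over Western for 81 of the 82 subunit genes, grouped by complex (II, III and V in brackets). Black diamonds are fitted ratios with 95% intervals, red points the pairs with squalene in Cy5 and blue points those with it in Cy3 (n = 4 pairs); every interval spans 0, and only that of Ndufa4l2 reaches past 0.32 from 0.

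More members lay above 0 than below, and pairs 3 and 4 carried that split. On average 58 of 82 members (70.7%) were above 0, against 51.8% of all features. In pairs 1 to 4 the members' median was 0.0032, -0.04, 0.05 and 0.07, with 42, 32, 51 and 53 members above 0. Without pair 3 the count was 38 of 82 (46.3%, against 50.9% of all features), with a median of -0.0010. Without pair 4 it was 44 (53.7%, against 50.6%). With median centring in place of loess 81.7% of members were above 0, beside 59.9% of all features. The authors' deposited table is not normalised for dye. After each of its arrays was centred on the median here, the shares were 85.4% and 59.7%. Ratios were above 0 in all 4 pairs for 3 members, against 3.34% of all features, and below 0 in all 4 pairs for 2, against 3.04%. Those shares of the members are near the background.

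Of the 5 genes with 1 sign throughout, the first is Uqcrfs1, for the Rieske iron-sulphur protein that takes electrons from coenzyme Q in complex III. Uqcrfs1 had log2 intensities of 13.68, 13.94, 13.87 and 13.83 in squalene pools 5 to 8, against 13.68, 13.79, 13.79 and 13.80 in Western pools 1 to 4. Its ratio was 0.06 ± 0.06 (SD, n = 4), with the pools of pair 1 level and those of pair 2 furthest apart. Atp5pb, for subunit b of the ATP synthase stator, was at 0.05 ± 0.07, and Ndufa3, an accessory subunit of the complex I membrane arm, at 0.05 ± 0.05 (SD, n = 4 each). Below 0 in all pairs were Ndufa8, a cysteine-rich complex I subunit that faces the intermembrane space, at -0.07 ± 0.08, and Ndufb6, of the distal membrane arm, at -0.06 ± 0.07 (SD, n = 4 each). Each of these 5 ratios was close to its own spread between pairs. Atp5pb and Ndufb6 each had a second, dimmer probe that did not keep 1 sign. In pairs 1 to 4 it read -0.03, 0.14, 0.13 and -0.02 for Atp5pb, and -0.09, -0.13, -0.07 and 0.10 for Ndufb6.

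In complex I, 25 of 35 genes were above 0 and the median ratio was 0.02. Its catalytic core transfers electrons from NADH along iron-sulphur clusters to coenzyme Q. In the part that binds NADH, Ndufs1, for the largest iron-sulphur subunit, had the smallest unadjusted p of any member, 0.12 (limma, adjusted p 0.9999 by Benjamini-Hochberg). Ndufs1 had log2 intensities of 12.87, 13.24, 13.09 and 12.89 in squalene pools 5 to 8, against 12.99, 12.92, 12.73 and 13.05 in Western pools 1 to 4. Its ratios of -0.12, 0.33, 0.35 and -0.16 in pairs 1 to 4 had opposite signs in the 2 dye orientations, and their fitted mean was 0.10 (SE 0.05). The small SE is that left once the dye term has taken up this difference; the SD between pairs was 0.28.

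Ndufv1, which holds the flavin that accepts electrons from NADH, showed the same split by orientation. Ndufv1 had 14.43, 14.68, 14.73 and 14.62 in squalene pools 5 to 8, against 14.68, 14.56, 14.62 and 14.82 in Western pools 1 to 4, as log2 intensity. Its ratio was -0.06 (SE 0.05), and that of its partner Ndufv2 was 0.03 (SE 0.06). In the part that reduces coenzyme Q, Ndufs3 was at 0.06, Ndufs7 at 0.07 and Ndufs8 at -0.03, with SEs of 0.05 to 0.06. None of these core genes had 1 sign in all 4 pairs.

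The highest ratio of all members belonged to Ndufa5, an accessory subunit of the coenzyme Q-reducing arm, on chromosome 6. Ndufa5 had log2 intensities of 14.24, 14.13, 14.19 and 14.17 in squalene pools 5 to 8, against 14.14, 14.17, 14.04 and 13.98 in Western pools 1 to 4. The squalene pool was the higher in pairs 1, 3 and 4 and the lower in pair 2, and the groups overlapped. The ratio was 0.11 ± 0.10 (SD, n = 4; SE 0.06), and a second, dimmer probe of Ndufa5 read 0.15.

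Complex II, succinate dehydrogenase, is also an enzyme of the citrate cycle and is encoded wholly in the nucleus. Sdha, for the flavoprotein that oxidises succinate, had log2 intensities of 13.56, 13.79, 13.55 and 13.60 in squalene pools 5 to 8, against 13.66, 13.56, 13.64 and 13.54 in Western pools 1 to 4. The squalene pool was the higher in pairs 2 and 4 alone, and the ratio was 0.03 ± 0.15 (SD, n = 4). The iron-sulphur subunit Sdhb was at -0.0024 ± 0.25 (SD, n = 4). The membrane anchors Sdhc and Sdhd, which hold the haem and the coenzyme Q site, were at 0.0025 ± 0.28 and 0.02 ± 0.29 (SD, n = 4 each).

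The signs of both anchors followed dye orientation. Sdhd had ratios of -0.19, 0.28, 0.26 and -0.28 in pairs 1 to 4, and Sdhc had -0.23, 0.19, 0.29 and -0.24. Sdhb had the opposite sign in every pair, at 0.16, -0.34, -0.05 and 0.22. The median over the 4 genes was -0.14, 0.21, 0.11 and -0.09 in pairs 1 to 4.

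In complex III, 7 of 8 genes were above 0, with a median of 0.04. That median was 0.07, -0.04, -0.05 and 0.13 in pairs 1 to 4, above 0 where squalene was in Cy5. The core proteins Uqcrc1 and Uqcrc2, which carry no redox group, were at 0.0074 ± 0.14 and 0.05 ± 0.11 (SD, n = 4 each). Uqcrh, the hinge protein beside cytochrome c1, had the highest ratio of the complex, 0.07 ± 0.29 (SD, n = 4). Its log2 intensities were 15.10, 14.88, 14.75 and 15.08 in squalene pools 5 to 8, against 14.78, 15.10, 14.89 and 14.75 in Western pools 1 to 4. Squalene pools were thus the higher where they carried Cy5 and the lower where they carried Cy3. Uqcrq, a small membrane subunit, split the same way, at 0.03 ± 0.26 (SD, n = 4). The small subunits Uqcr10 and Uqcr11 were at 0.05 and 0.03, and Uqcrb, which lies near the coenzyme Q site, was the lowest at -0.01.

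In complex IV, cytochrome c oxidase, 10 of 18 genes were above 0 and the median was 0.0028. Cox4i1, the common form of the largest nuclear-encoded subunit, had log2 intensities of 15.80, 15.85, 15.75 and 15.80 in squalene pools 5 to 8, against 15.88, 15.83, 15.65 and 15.85 in Western pools 1 to 4. Its ratio was -0.0034 ± 0.08 (SD, n = 4), and the groups overlapped. Cox5a was at 0.0046 ± 0.26, with -0.24 and -0.18 in the Cy5 pairs 1 and 4 and 0.30 and 0.15 in the Cy3 pairs 2 and 3.

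Several subunits of complex IV exist in forms that differ between tissues, which allowed a look at whether the mix of forms moved. Among the forms that liver uses, Cox6a1 was at 0.03, Cox7a2 at 0.03 and Cox8a at 0.04, with SEs of 0.06 to 0.07. The forms typical of heart and skeletal muscle, Cox6a2, Cox7a1 and Cox8b, were at -0.11, -0.02 and -0.02, with SEs of 0.06 to 0.09. Cox4i2, typical of lung, was at -0.0042, the testis form Cox6b2 at 0.06 and its common counterpart Cox6b1 at 0.02. Cox7b was at 0.01 and Cox7a2l, a relative of Cox7a2, at 0.02. In squalene pools the mean log2 intensity was 6.54 for Cox8b, 6.96 for Cox6a2, 7.11 for Cox6b2 and 7.49 for Cox4i2. The untested Cox7b2 and Cox8c were at 5.86 and 5.92, Cox7a1 at 9.37, and the 3 liver forms at 13.75 to 16.9. Ratios of forms so near the floor say little about a change in the mix. No form passed the unadjusted test, and the intervals of the 3 liver forms and the 3 muscle forms overlapped; differences between forms were not tested.

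Cox6a2 had log2 intensities of 7.16, 6.81, 6.88 and 6.98 in squalene pools 5 to 8, against 7.03, 7.19, 7.06 and 7.01 in Western pools 1 to 4. Its squalene pool was the lower in pairs 2, 3 and 4, and its unadjusted p was 0.16 (limma, adjusted p 0.9999 by Benjamini-Hochberg). Of the 11 muscle markers, 9 were not kept, Ckm, Mb and Actc1 among those above background in 0 of 8 pools. The log2 of the summed level of the 2 kept ranged from 7.40 to 7.65 in squalene pools, against 7.33 to 7.52 in Western pools. Within pairs 1 to 4 it was higher in the squalene pool by 0.24, 0.13, 0.04 and 0.11, the opposite direction to the fitted ratio of Cox6a2. Tnnt2, a cardiac troponin and 1 of the 2 kept, was at 0.24 (SE 0.08, unadjusted p 0.024 by limma) and above 0 in all 4 pairs. The other, Myh7, was at -0.02 (SE 0.06), with 0.05, -0.16, -0.02 and 0.04 in pairs 1 to 4. The part of these markers in the values of the muscle forms was not tested.

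Ndufa4 was first assigned to complex I and is now counted in complex IV, and its relative Ndufa4l2 is known as a target of the hypoxia factor HIF-1. Ndufa4 was at -0.03 ± 0.07 (SD, n = 4). Ndufa4l2 had log2 intensities of 7.34, 7.30, 7.63 and 7.35 in squalene pools 5 to 8, against 7.45, 7.57, 7.35 and 7.71 in Western pools 1 to 4. Pair 3 stood on the other side of 0 from the rest, at 0.28 against -0.11, -0.27 and -0.37 in pairs 1, 2 and 4. The ratio was -0.12 ± 0.28 (SD, n = 4), the lowest and the least precise of the members. Without pair 3 it was -0.25 and alone among the members at an unadjusted p under 0.05 (limma). That was 1.22% of members, against 4.22% of all features without pair 3. The mean log2 intensity of Ndufa4l2 in squalene pools, 7.41, was near that of Cox4i2, so near the floor.

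In ATP synthase, 13 of 17 genes were above 0, with a median of 0.03. Atp5b, for the catalytic beta subunit, had log2 intensities of 15.93, 15.96, 15.90 and 16.01 in squalene pools 5 to 8, against 15.77, 15.95, 16.07 and 15.94 in Western pools 1 to 4. The ratio was 0.02 ± 0.14 (SD, n = 4), with the squalene pool the lower in pair 3 alone. Atp5a1, for the alpha subunit, was at 0.03 ± 0.20, and Atp5c1, for the gamma shaft that turns within them, at 0.06 ± 0.11 (SD, n = 4 each). Of the membrane part, the small subunit Atp5mpl had the highest ratio, 0.07, and Atp5k, which helps synthase dimers form, the lowest, -0.02.

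The genes Atp5g1, Atp5g2 and Atp5g3 encode the same mature c subunit of the rotor with different import sequences. They were at -0.02 ± 0.08, 0.01 ± 0.18 and 0.02 ± 0.30 (SD, n = 4 each), and Atp5g3 ran from -0.27 in pair 3 to 0.38 in pair 4. Probe sequences were not used here, so signal shared among these genes, or with pseudogenes of other members, cannot be told apart. Atpif1, the inhibitor of the synthase, fell outside the symbol rule and was at -0.07 (SE 0.08).

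**Figure D2:**
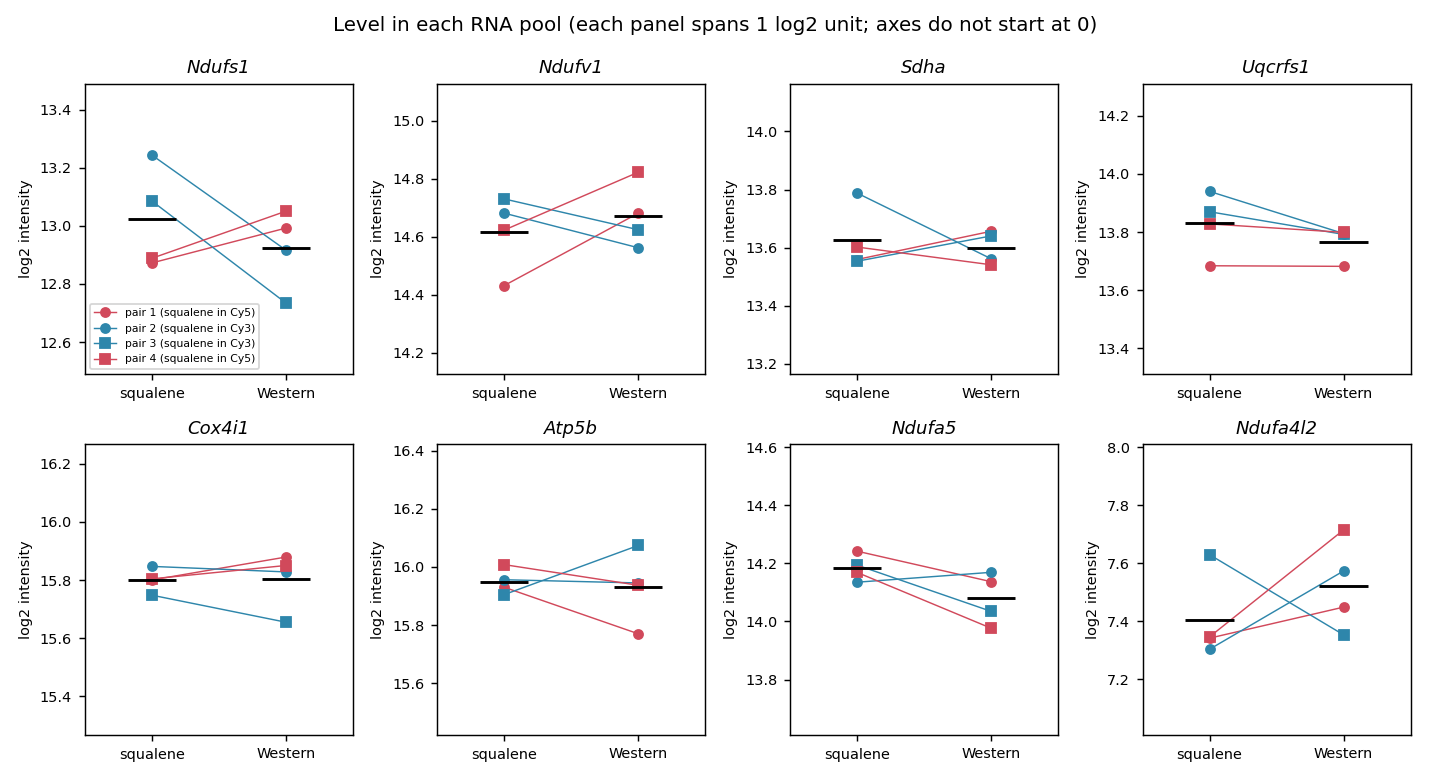
Log2 intensity of 8 members in each RNA pool, squalene at left and Western at right, with lines joining the pools of 1 array pair and black bars at the means (n = 4 pools per diet). Lines of the Cy5 pairs (red) and the Cy3 pairs (blue) slope in opposite directions for Ndufs1 and Ndufv1, and in every panel the groups overlap.

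Where genes had other probes above background, these gave a check of the values. Of 22 such members, the sign of the mean ratio differed between probes in 6, namely Atp5l, Cox7a2l, Ndufv3, Sdhb, Uqcrb and Uqcrq. The widest gap was in Ndufv3, an accessory complex I subunit, at 0.03 for the brightest probe and -0.12 for the other.

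Member ratios differed by dye orientation. Across the 82 members, ratios correlated at 0.65 between pairs 1 and 4 and at 0.38 between pairs 2 and 3, which share an orientation. Between pairs of opposite orientation the correlations were -0.54, -0.65, -0.59 and -0.57. Over all features they were 0.08 and 0.16 within an orientation, and -0.13, -0.43, -0.41 and -0.02 between orientations. These correlations are across genes, which share arrays and are not independent replicates.

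In 35 of 82 members (42.7%) the sign was the same within each orientation and opposite between them, against 27.8% of all features. The members' median log2 intensity over both dyes was 14.2, against 8.50 for all features. Comparisons with all features, here and for the correlations, are thus not matched for brightness. The dye term was larger than the squalene effect in 67 members (81.7%), against 67.8% of all features. At an unadjusted p of 0.05 the dye term was called in 14 members (17.1%), against 15.3% of all features, and at an adjusted p of 0.05 in 0 members and 0% of all features (limma, Benjamini-Hochberg). It ran from -0.25 for Sdhd to 0.25 for Uqcrh. Each pool was labelled with 1 dye alone, so an effect of the dye and a difference between those pools cannot be told apart.

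**Figure D3:**
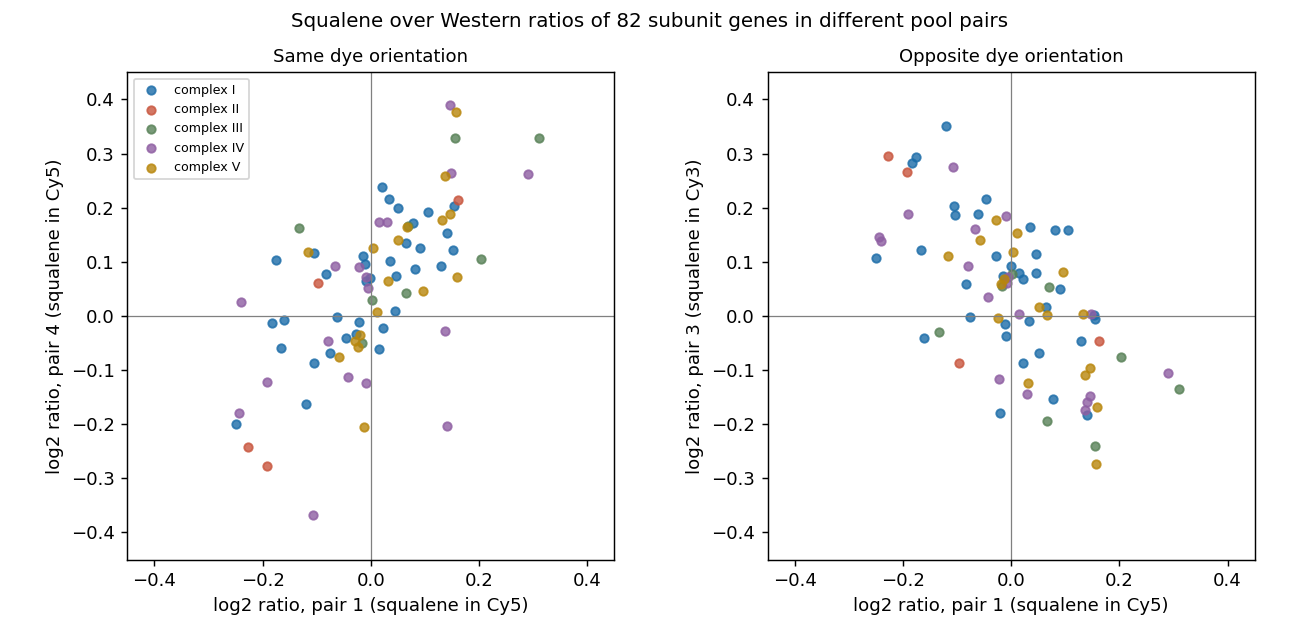
Log2 ratio of squalene over Western for 82 members in pair 4 (left) and pair 3 (right) against pair 1, coloured by complex. Pairs 1 and 4, both with squalene in Cy5, lie along a rising diagonal (r = 0.65), and pairs 1 and 3, of opposite orientation, along a falling one (r = -0.65).

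Genes that build, regulate or feed the chain gave no unadjusted call either. Of 46 assembly factors measured, 26 were above 0 and 20 below, with a median of 0.0074; the smallest unadjusted p, 0.064 (limma), was that of Coa5, needed to assemble complex IV, at 0.14 (SE 0.06). Its ratios in pairs 1 to 4 were 0.13, 0.23, 0.07 and 0.12. Of 21 regulators of mitochondrial biogenesis, 11 were above 0 and 10 below, with a median of 0.0018 and the smallest p in Mterf3, a regulator of mitochondrial transcription and ribosome assembly, at 0.15 (SE 0.09). Ppargc1a, the coactivator that drives mitochondrial biogenesis, was at 0.06 (SE 0.06), and the factors whose motifs were sought in the promoters were at -0.05 for Nrf1, 0.0070 for Gabpa, 0.07 for Yy1 and -0.0027 for Esrra, with SEs of 0.06 to 0.10. Tfam, which packs and transcribes mitochondrial DNA, was at 0.02 (SE 0.07).

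The citrate cycle list, with pyruvate dehydrogenase and pyruvate carboxylase, had the highest median of these lists, 0.07, with 14 of 18 above 0. In pairs 1 to 4 that median was -0.01, 0.12, 0.15 and 0.0068, so pairs 2 and 3, both with squalene in Cy3, carried it. The median dye term of the list was -0.08. Its smallest p belonged to Pcx, for pyruvate carboxylase, which feeds gluconeogenesis, at -0.20 (SE 0.08), with -0.40, 0.25, -0.14 and -0.49 in pairs 1 to 4. Of 12 genes of coenzyme Q synthesis, 6 were above 0 and 6 below, with a median of 0.02. Coq5, a methyltransferase of that pathway, was above 0 in all 4 pairs, at 0.12 (SE 0.06; unadjusted p 0.087 by limma).

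Of 77 mitochondrial ribosomal proteins, 42 were above 0 and the median was 0.0014, with the smallest p in Mrpl50, at 0.09 (SE 0.06). Of 20 genes of membrane coupling and peroxide removal, 12 were above 0 and the median was 0.01, with the smallest p in Txn2, the mitochondrial thioredoxin, at 0.14 (SE 0.07). Of subunits and carriers outside the symbol rule, cytochrome c1 (Cyc1) was at -0.03, cytochrome c (Cycs) at -0.03 and the acyl carrier Ndufab1 at -0.02. Of 83 cytosolic ribosomal proteins, 52 were above 0, with a median of 0.02 and the smallest p in Rpl13a, at -0.07 (SE 0.05). The cytosolic ribosome's medians of 0.10, -0.15, -0.11 and 0.16 in pairs 1 to 4 split by dye orientation, as complex II did with the opposite sign.

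**Figure D4:**
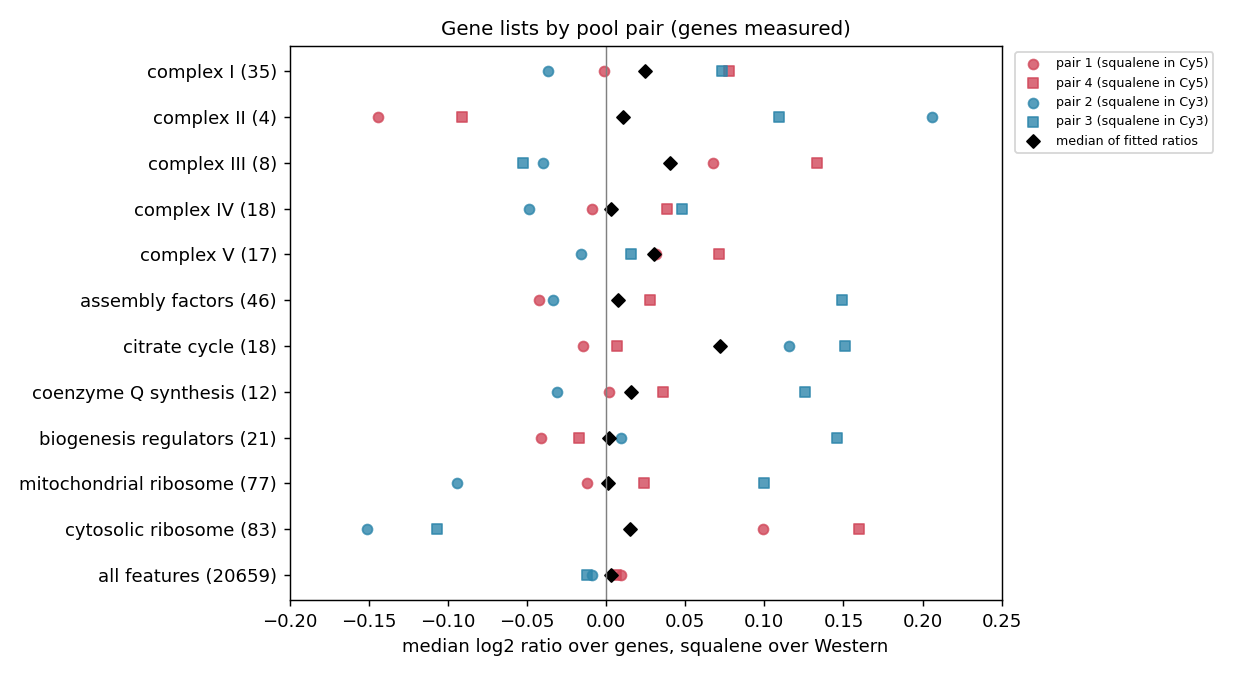
Median log2 ratio of squalene over Western for the 5 complexes, 6 related gene lists and all features, with the number of genes measured in brackets. Coloured points are single pool pairs and black diamonds the medians of fitted ratios; pair medians of complexes II and III and of the cytosolic ribosome fall on both sides of 0 by dye orientation, and the diamonds lie between 0.0014 and 0.07.

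Other cell types were tracked by their markers. The 7 macrophage markers kept were all below 0, 3 of them at an unadjusted p under 0.05 (limma), and the log2 of their summed level ranged from 13.8 to 14.3 in squalene pools, against 14.2 to 14.5 in Western pools. Of 7 fibroblast markers 6 were below 0, 5 of them at that p, with summed levels of 14.5 to 15.1 in squalene pools, against 14.9 to 15.1 in Western pools. The fibroblast medians were 0.24, -0.84, -0.74 and 0.12 in pairs 1 to 4, below 0 in the Cy3 pairs alone. All 5 red cell markers were below 0, 3 at that p, with summed levels of 16.2 to 17.3 in squalene pools, against 16.7 to 18.0 in Western pools. Red cell medians of -0.63 and -1.64 in the Cy3 pairs 2 and 3 stood beside values of about 0 in pair 1 and 0.15 in pair 4. Macrophage medians were 0.25, -0.07, -0.71 and -0.40 in pairs 1 to 4. The 3 brown fat markers kept were Elovl3 at -0.43 ± 1.29 (SD, n = 4), Cidea at -0.09 and Fabp4 at -0.0041, none at that p, with summed levels of 11.1 to 12.3 in squalene pools, against 11.2 to 12.6 in Western pools. All 6 endothelial markers were below 0 and none was at that p; their summed levels were 13.6 to 13.9 in squalene pools, against 13.7 to 13.8 in Western pools. The 10 hepatocyte markers were all above 0, none at that p, with a median of 0.07 and summed levels of 19.8 to 20.1 in both groups. Hepatocyte medians of -0.02, -0.16, 0.31 and 0.27 in pairs 1 to 4 stood beside member medians of 0.0032, -0.04, 0.05 and 0.07. The part of these differences in the members' values was not tested.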

How the data were processed

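Liver RNA of 4 squalene and 4 Western pools was measured on 6 two-colour arrays. The deposited scanner files hold raw intensity of spots and their background for each dye, and a dye-normalised, background-subtracted intensity (per the file headers, from Agilent Feature Extraction, version 10.7.3.1). The scanner's log10 ratio of red over green was in the same deposited files, per the file headers. A series-wide table deposited by the authors holds score values of undocumented processing; they matched log10 ratios (squalene over Western) of unnormalised median signals, within 0.001 for over 99.9% of spots on each array, apart from 4 cells left out as too large for a log ratio. Its column medians were 0.254 and 0.270 for pair 1, -0.217 and -0.257 for pair 2, -0.27 for pair 3 and 0.259 for pair 4.

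Software was limma 3.58.1 in R 4.3.3, with version 1.17.8 of data.table. Median signals had normexp background correction with offset 50 and loess within arrays, with control and outlier spots at weight 0. Ratios were turned to squalene over Western by the dye labels, and replicate spots, then repeat arrays, were averaged. Probes were kept where at least 3 of the 4 pools of 1 diet were well above background, in over 50% of their spots for that pool, which left 26854 of 55681 probes. The RefSeq table of assembly GRCm38.p6 named 26762 probes; the files use an older build, so gene coordinates are not given. limma's lmFit and eBayes fitted a squalene effect and a dye term, with 2 residual and 3.04 prior degrees of freedom and Benjamini-Hochberg adjustment over 20659 features. Levels are log2 intensity by channel, after loess followed by Aquantile scaling. A summed marker level is the log2 of the sum of the linear levels. The fit was tested on simulated data.

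The members and gene lists were chosen with earlier results of these data known. Named members were those with 1 sign in all pairs, the highest and lowest of each complex, listed core subunits and tissue forms, and the smallest p of each related list; Sdhc, Sdhd, Uqcr10, Uqcr11, Uqcrq, Atp5l, Ndufv3, Ndufa13 and the regulators named beside the motifs were picked with values in view, like single genes named from the markers. Alternatives covered background correction, normalisation, probe filter, dye term, slide, probes per gene, variance model and left-out pairs. A planned comparison of protein sequences was not made. For 1 member the single-gene result is not reported here; counts and medians keep it.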

Additional observations from a re-analysis of the deposited data

Results flagged for a closer look

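Ndufa13, an accessory subunit of complex I, had 1 pool pair apart from the other 3: its ratio was 0.11 in pair 3, against -0.03, -0.02 and -0.03 in pairs 1, 2 and 4, and the gap was 0.93 of the whole range, above Dixon's limit for 4 values. It was the only 1 of 82 members (1.22%). The limit's rate of about 1 in 20 is for 4 values from 1 normal distribution. Signs split by dye orientation in 42.7% of members, so that rate does not measure chance here. The share over all features is not given.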

How the results depend on the processing

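No member passed an adjusted p of 0.05 under any of the 15 alternative settings (limma, Benjamini-Hochberg), and the medians of the members and of the 5 complexes moved by less than their SD between pairs. The count of features past an adjusted p of 0.05 was 2 under median centring, 8 in the deposited table and 3 for 6 arrays and a slide term; the features at an unadjusted p under 0.05 were 201, 182, 935 (no filter), 254 (no dye term) and 6 (trend and robust variance). Members above 0 in all 4 pairs numbered 1 (1.22%) with Agilent's processed signals, against 3.12% of all features. With median centring, the deposited table or slide 2 alone they numbered 0, against 1.88%, 1.04% and 3.49% of all features. Members below 0 in all 4 pairs numbered 1 with Agilent's signals, 0 with median centring or the deposited table and 1 as the mean over probes. The share of all features below 0 is not given for these settings. Leaving out 1 pool pair at a time gave 363 to 1309 features at an unadjusted p, the highest without pair 2, and 38 to 63 members above 0 on average. The 38, without pair 3, were 46.3% of members against 50.9% of all features. The 63, without pair 1, were 76.8% against 52.1%. Members above 0 in all remaining pairs were then 3 to 18 and those below 3 to 5. The share of all features below 0 is not given for these. Members at an unadjusted p numbered 0 to 1, the 1 being Ndufa4l2 without pair 3, where 4.22% of all features were. Fewer pairs are needed for 1 sign when a pair is left out, and the cause of the other differences was not tested. The highest count above 0, 18, came without pair 2 and was 21.95% of members, against 9.62% of all features, and the lowest, 3 without pair 4, was 3.66% against 8.45%. The median of the members ran from -0.0010 to 0.04 across these, and those of complexes I, II and IV also crossed 0 when a pair was left out; that of complex IV was also -0.0095 with Agilent's processed signals and -0.0011 with no filter on dim probes. Of 47 named members 29 changed sign under at least 1 setting, in 73 of 704 values, none of which moved beyond 1 SD. The number of pool pairs limits the precision, and 2 residual degrees of freedom leave the p-values dependent on the variance shared across features.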
